A study of Rattus norvegicus with 36 samples.

Results

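Genes of skeletal muscle were followed in pooled dorsal root ganglia of the rat, which hold the cell bodies of sensory neurons next to the cord. The members were all probe sets on the 3 chip types (A, B and C) of the Affymetrix RG_U34 arrays that the platform annotation gives to Acta1, Ckm, Tnnc2, Tnnt3, Casq1, Pygm, Tnnc1, Myh7, Myh3 or Tpm2 and to no other gene. The rule found 22 of 26202 probe sets without controls, for all 10 genes, out of 10969 genes with a probe set of their own. A further probe set, annotated to both Myh7 and Myh6, was left out. Of the 22, 13 were bright enough to be tested, among 15721 tested probe sets, and each gene had at least 1. By role, 2 of 2 probe sets of genes of all fibres were tested, 5 of 7 of the fast-fibre genes, 2 of 4 of the slow-fibre genes, 2 of 5 of embryonic Myh3 and 2 of 4 of Tpm2.

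Total RNA came from 6 pools, 3 kinds of ganglia at 28 and at 50 days after surgery. The L5 pools held L5 ganglia of rats with L5 SNL (spinal nerve ligation), in which the nerve of that ganglion is tied. Ganglia of the next segment, L4, made up the L4 pools and came from rats with the same ligation. Both kinds of ganglia were combined in the sham pools, from sham-operated rats. Normal differences between L4 and L5 ganglia are therefore part of every comparison between kinds of ganglia, though not of those between days. Where the labels state it, 30 rats went into a pool, and its RNA went onto 2 arrays per chip type. Strain, sex and age are not given in the sources used here.

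A skeletal muscle fibre contracts when calcium released from its internal store binds troponin C on the thin filament and frees actin for the myosin heads. Fast and slow fibres carry out these steps with different gene products, and embryonic myosin is made in developing and regenerating fibres. Neurons, satellite glia and Schwann cells, the main cells of a dorsal root ganglion, build no sarcomeres, whereas muscle lies close around the vertebral column, from which ganglia are dissected.

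Promoters are shown for 4 members. Acta1, Tnnc2 and Ckm had the same lowest and highest pools, which Tnnt3, Myh7 and Tpm2, not shown, had too. Myh3, by its brightest probe set, had a different lowest and highest pool. Each sequence is the 250 bases before the start site of the RefSeq gene, 5′ to 3′ on the gene's strand, from assembly GRCr8. Capitals mark matches, on either strand, to the E-box CANNTG bound by myogenic factors such as MyoD, the CArG box bound by serum response factor, the MEF2 site, or the TATA box (TATAAA) of basal promoters.

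Acta1 (GRCr8, chr19:68784195-68784444, minus strand): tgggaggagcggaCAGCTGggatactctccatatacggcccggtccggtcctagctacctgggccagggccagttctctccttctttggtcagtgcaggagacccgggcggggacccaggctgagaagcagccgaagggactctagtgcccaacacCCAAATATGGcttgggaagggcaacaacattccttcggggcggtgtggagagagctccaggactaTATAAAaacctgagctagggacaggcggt
Ckm (GRCr8, chr1:88189211-88189460, plus strand): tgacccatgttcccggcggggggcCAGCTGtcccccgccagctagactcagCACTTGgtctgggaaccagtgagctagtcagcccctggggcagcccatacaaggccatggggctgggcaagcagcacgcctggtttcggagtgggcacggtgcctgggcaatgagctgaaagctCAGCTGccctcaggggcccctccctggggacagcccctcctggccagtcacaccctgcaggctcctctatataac
Tnnc2 (GRCr8, chr3:173935340-173935589, minus strand): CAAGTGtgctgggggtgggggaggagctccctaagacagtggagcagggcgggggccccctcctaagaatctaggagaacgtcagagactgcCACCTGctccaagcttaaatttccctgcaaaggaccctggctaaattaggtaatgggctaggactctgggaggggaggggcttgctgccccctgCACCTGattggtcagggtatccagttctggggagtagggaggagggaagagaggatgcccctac
Myh3 (GRCr8, chr10:52268935-52269184, plus strand): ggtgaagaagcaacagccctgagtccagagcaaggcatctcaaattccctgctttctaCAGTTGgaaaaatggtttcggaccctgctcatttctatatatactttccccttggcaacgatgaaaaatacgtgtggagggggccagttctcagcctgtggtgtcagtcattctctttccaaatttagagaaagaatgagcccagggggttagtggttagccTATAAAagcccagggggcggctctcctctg

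Motifs were searched from 250 bases before to 50 bases after the start site, and 8 of 10 member genes had such a window. An E-box was present in 7 of the 8 members and in 71.6% of all 27457 promoters of this length, Tpm2 being the member without one. Only the Acta1 window held a CArG box (94 bases before the start site), which 1.64% of all promoters hold. The TATA box was found in Acta1 and Myh3, at 29 and 30 bases before the start site, and in 14.3% of all promoters. The MEF2 site was in 0 of 8 member windows and in 3.37% of all. A match is a string of letters and not a measured binding site.

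Values are MAS5 array signals, an intensity on a linear scale. Median signals of the 36 arrays ran from 50.6 to 91.8, with r between 0.882 and 0.958 for the 2 arrays of 1 pool (tested probe sets). The number of pools, 2 per ganglion, limits the precision, since the 2 arrays of a pool share its RNA. All 13 sensory neuron genes that were looked up, among them Prph, Nefh and Calca, were bright enough to be tested, with a lowest signal of 43.8 on any array. On chip B, which carries the tested Tnnc1 probe set and the brightest of Tpm2, 1 sham array is titled 28 days but described as 50 days. It was used by its title: it correlated at r = 0.954 with the other array of the 28 day pool and at 0.933 and 0.929 with those of the 50 day pool. Differences below are of log2(signal + pseudocount), the pseudocount being the 20th percentile of signals of a chip type, and are relative to the trimmed mean of an array. Tests are limma fits to the 6 pool means, with ganglion and day as terms and n = 2 pools per ganglion. Benjamini-Hochberg adjustment ran over all tested probe sets, and an adjusted p under 0.05 counted as called. The 2 days serve as replicates, so a gene whose difference varies with the day has a larger error. At 1 day there is 1 pool a side and no test. A probe set was then counted as past the fold if it differed by at least 1 on the log2 scale and both arrays of one pool lay beyond both of the other.

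Most member genes ran lowest in the sham pool of 28 days and highest in the L5 pool of 28 days. In L5 against sham, Tpm2 rose (1.16 ± 0.21 on the log2 scale, SE), the only 1 of 13 member probe sets called. The share called higher among all tested probe sets was 0.235%. All 13 member probe sets lay above 0, against 53.6% of all, and the median over the 10 genes was 1.02, against 0.03 over all probe sets. In an alternative scaling to the hybridisation controls the median of all probe sets was -0.44 and that of the members 0.56, with Tnnc1 and Myh3 below 0, and Myh3 was also just below 0 with median centring. The number of member calls changed with the pools used: 0 without the sham or L5 pool of 28 days, 3 without the sham pool of 50 days, 5 without either L4 pool and 6 without the L5 pool of 50 days, and the calls of higher probe sets over the whole arrays changed with them, from 18 without the sham pool of 28 days to 260 without the L5 pool of 50 days. In such bulk RNA, more cells of a type and more RNA per cell cannot be told apart.

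**Figure D1:**
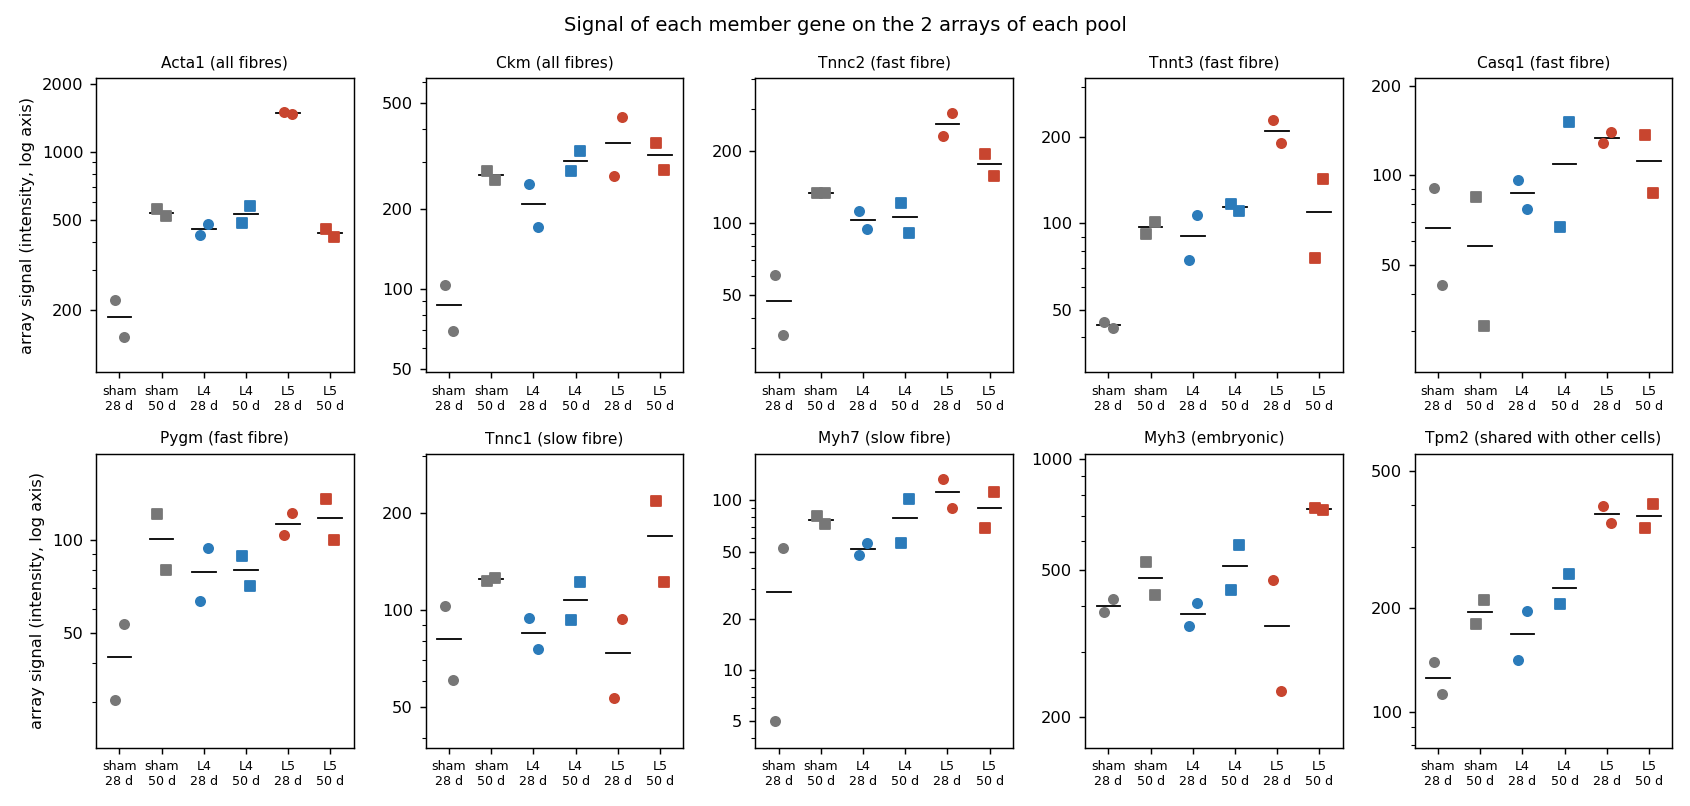
Array signal (log axis) of the probe set that stands for each of the 10 member genes on the 2 arrays of each pool (points: circles at 28 days, squares at 50 days; grey sham, blue L4, red L5) with the mean of the 2 arrays (line). In Acta1 both arrays of the L5 pool of 28 days lie at 1474 and 1507 and no other array is above 576, whereas Myh3 and Tnnc1 have their highest arrays in the L5 pool of 50 days.

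Acta1 encodes the actin of the skeletal muscle thin filament in all fibres. Its signals (probe set J00692_at) were 222 and 153 in sham at 28 days, 559 and 519.9 in sham at 50 days, 430.5 and 479.5 in L4 at 28 days, 488 and 576 in L4 at 50 days, 1507 and 1474 in L5 at 28 days and 459 and 423 in L5 at 50 days. The L5 pool of 28 days stood far above all other pools and the sham pool of 28 days below all of them, with no overlap of arrays, while the remaining 4 pools lay close together. In the fit, L5 minus sham was 1.32 ± 0.50 (adjusted p = 0.214). The difference was 2.93 at 28 days (7.63-fold) and -0.28 at 50 days. Within L5 alone, Acta1 was lower by 1.73 at 50 than at 28 days.

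Ckm encodes the muscle form of creatine kinase, which regenerates ATP from phosphocreatine in all fibres. For M10140_at the signals were 104 and 69.8 in sham at 28 days, 277.5 and 257 in sham at 50 days, 248 and 170.3 in L4 at 28 days, 278 and 329 in L4 at 50 days, 264.5 and 440.5 in L5 at 28 days and 354 and 279.9 in L5 at 50 days. The sham pool of 28 days lay below every other array and the L4 pool of 28 days came next, below all the rest, whereas the arrays of the L5 pool of 28 days overlapped those of all 3 pools of 50 days. The L5 minus sham difference was 1.04 ± 0.31 (adjusted p = 0.134), with 1.85 at 28 days and 0.23 at 50 days. L4 at 28 days was above sham by 1.16 for Ckm and 1.25 for Acta1.

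Among the fast-fibre genes, Tnnc2, the fast calcium-binding troponin subunit, had signals (rc_AI639532_at) of 60.6 and 33.9 in sham at 28 days, 133 and 133 in sham at 50 days, 112 and 93.8 in L4 at 28 days, 120.5 and 91 in L4 at 50 days, 231 and 287 in L5 at 28 days and 193 and 157.5 in L5 at 50 days. Both L5 pools lay above all other pools and the sham pool of 28 days lay below them all, without overlap. L5 minus sham was 1.28 ± 0.37 (adjusted p = 0.122), 2.21 at 28 days and 0.36 at 50 days. The fast troponin T gene Tnnt3, whose product ties the troponin complex to tropomyosin, was measured by rc_AI136540_at at 45.3 and 43.3 in sham at 28 days, 92.1 and 101.5 in sham at 50 days, 74.6 and 107 in L4 at 28 days, 117 and 110.1 in L4 at 50 days, 229 and 190.2 in L5 at 28 days and 75.7 and 143 in L5 at 50 days. The L5 pool of 28 days lay above every other array and the sham pool of 28 days below, but in the L5 pool of 50 days the 2 arrays spanned the sham and L4 values of that day. Relative to sham, L5 differed by 1.03 ± 0.38 (adjusted p = 0.202), 1.96 at 28 days and 0.10 at 50 days. The other Tnnt3 probe set, rc_AI170906_at, was dim (9.3 to 34.7 over the 12 arrays) and was not tested.

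Casq1, calsequestrin, binds calcium in the internal store of fast fibres. Its probe set rc_AI639422_at gave 90.6 and 42.8 in sham at 28 days, 84.8 and 31.2 in sham at 50 days, 96.9 and 77.3 in L4 at 28 days, 67 and 151 in L4 at 50 days, 128 and 140.1 in L5 at 28 days and 137 and 87.3 in L5 at 50 days. Arrays of 1 pool differed widely, above all in sham, and both L5 arrays lay above both sham arrays of the same day, at 50 days narrowly. The difference was 0.93 ± 0.28 (adjusted p = 0.140) and nearly equal at the days, 0.95 and 0.90. Of the members called fast here, Pygm encodes muscle glycogen phosphorylase, which releases sugar phosphate from glycogen. L10669_g_at gave 30.5 and 53.6 in sham at 28 days, 122 and 80.2 in sham at 50 days, 63.8 and 94.6 in L4 at 28 days, 89.1 and 71.3 in L4 at 50 days, 104 and 122 in L5 at 28 days and 136 and 100 in L5 at 50 days. The sham pool of 28 days was again the lowest, and both L5 pools lay above both L4 pools and overlapped the sham pool of 50 days. The fit gave L5 minus sham of 0.72 ± 0.33 (adjusted p = 0.294), 1.23 at 28 days and 0.21 at 50 days. A second tested Pygm probe set, L10669_at, had arrays of 50.3 and 2.2 in the L4 pool of 50 days, so its values there rest on arrays that disagree, and rc_AI231823_at was dim (2.4 to 6).

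The slow-fibre genes Myh7 and Tnnc1 went different ways at 28 days. Myh7 encodes the slow myosin heavy chain, also that of the heart ventricle. Its tested probe set X15939_f_at, of a type that can also detect related genes of a family, gave 5 and 52.4 in sham at 28 days, 80.5 and 72.7 in sham at 50 days, 47.4 and 56.1 in L4 at 28 days, 55.9 and 102 in L4 at 50 days, 134 and 90.8 in L5 at 28 days and 69.1 and 112 in L5 at 50 days. The 2 sham arrays of 28 days were far apart; the L4 pool of 28 days overlapped them, and every other pool lay above both. L5 minus sham was 1.02 ± 0.39 (adjusted p = 0.224), with 1.85 at 28 days and 0.18 at 50 days. With array 1 or array 2 alone the 28 day difference was 3.04 or 0.67. Its 2 other probe sets were dim, 2 to 24.4 in rc_AA998374_f_at and 2 to 60.3 in X15939_i_at.

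Tnnc1 is the troponin C of slow fibres and heart. Its only probe set, rc_AA925122_at on chip B, gave 102 and 60.4 in sham at 28 days, 123 and 126 in sham at 50 days, 94.4 and 75.7 in L4 at 28 days, 93.3 and 122 in L4 at 50 days, 53.4 and 93.5 in L5 at 28 days and 217 and 122 in L5 at 50 days. The L5 pool of 28 days included the lowest array and that of 50 days the highest, and sham at 28 days overlapped both L4 pools and the L5 pool of 28 days. In the fit L5 minus sham came to 0.11 ± 0.25 (adjusted p = 0.844), with -0.12 at 28 days and 0.35 at 50 days. The slow troponin C thus did not share the high L5 value of 28 days that Tnnc2, its fast counterpart, had.

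Myh3 encodes the embryonic myosin heavy chain. Its brightest probe set, X04267_at, gave 384 and 417 in sham at 28 days, 524 and 428 in sham at 50 days, 353 and 408.5 in L4 at 28 days, 440.3 and 584 in L4 at 50 days, 471 and 236 in L5 at 28 days and 736 and 727 in L5 at 50 days. Only the L5 pool of 50 days stood apart, above every other array, and the L5 pool of 28 days held the lowest array and overlapped sham. For this probe set L5 minus sham was 0.18 ± 0.22 (adjusted p = 0.705), with -0.25 at 28 days and 0.61 at 50 days. The second tested Myh3 probe set, K03468_s_at, gave 49.9 and 34.9 in sham at 28 days, 57.5 and 43.1 in sham at 50 days, 20.4 and 37 in L4 at 28 days, 23.5 and 38.6 in L4 at 50 days, 57.9 and 80.9 in L5 at 28 days and 53.7 and 50.2 in L5 at 50 days. There the L5 pool of 28 days lay above all other arrays, narrowly so for sham and L5 at 50 days, and L5 minus sham was 0.31 ± 0.38 (adjusted p = 0.701), 0.57 at 28 days and 0.05 at 50 days. The 2 probe sets thus differed on which L5 pool was higher. The other 3 Myh3 probe sets were dim, between 2.7 and 40.9 on all arrays.

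Tpm2 encodes beta-tropomyosin, which lies along the thin filament of muscle and is also made in smooth muscle and non-muscle cells. For rc_AA963366_at on chip B the signals were 139 and 112 in sham at 28 days, 179.8 and 211 in sham at 50 days, 142 and 196 in L4 at 28 days, 206 and 250.5 in L4 at 50 days, 396 and 354.5 in L5 at 28 days and 341 and 400.3 in L5 at 50 days. Both L5 pools lay above every sham and L4 array. L5 minus sham was 1.16 ± 0.21 (2.24-fold, adjusted p = 0.045), with 1.46 at 28 days and 0.87 at 50 days. Against L4 the difference was 0.88 ± 0.21 (adjusted p = 0.081). The call was lost without the sham pool of 28 days (0.97, adjusted p = 0.305), that of 50 days (1.35, adjusted p = 0.116) or the L5 pool of 28 days (0.91, adjusted p = 0.064). It was also lost without the sham array whose labels give both days (1.23, adjusted p = 0.054). Over all alternatives the adjusted p ran from 0.0026 to 0.305, the call stood in 8 of 18 settings, and the difference stayed between 0.61 and 1.42.

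A second tested Tpm2 probe set, AA012719_at on chip C, gave 49.5 and 40.2 in sham at 28 days, 16.7 and 62.8 in sham at 50 days, 17.4 and 22.2 in L4 at 28 days, 71.2 and 70.3 in L4 at 50 days, 80.2 and 125 in L5 at 28 days and 109 and 114 in L5 at 50 days. Again both L5 pools lay above every sham and L4 array, and L5 minus sham was 1.07 ± 0.38 (adjusted p = 0.193). Of the untested ones, rc_AA858875_at ran from 5.7 to 127.2 with arrays of a pool far apart, and L00382cds_at stayed at or below 14.9.

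**Figure D2:**
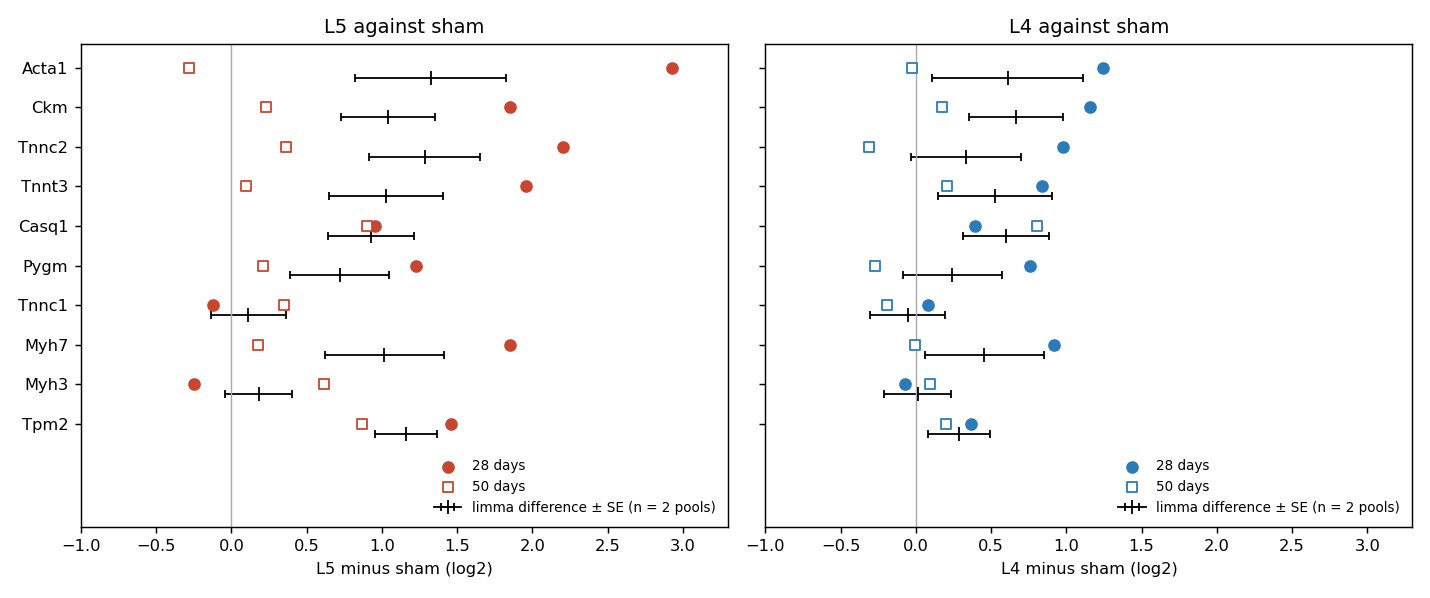
L5 minus sham (left) and L4 minus sham (right) on the log2 scale for each member gene: 1 pool against 1 pool at 28 days (filled circles) and at 50 days (open squares), and the limma difference with its SE (black, n = 2 pools per ganglion). In L5 the 28 day value exceeds 1 for 7 genes; Acta1 is at 2.93 at 28 days and -0.28 at 50 days, whereas Casq1 is at 0.95 and 0.90.

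By day, the members stood above sham mostly at 28 days. In L5 against sham at 28 days, 7 of 13 member probe sets were past the fold and higher (Acta1, Ckm, Tnnc2, Tnnt3, Pygm, Myh7 and Tpm2), against 2.67% of all tested probe sets. The median over the 10 genes was 1.66, against 0.01 over all. At 50 days 1 of 13 was past the fold, a Tpm2 probe set (AA012719_at), against 3.13% of all, and the median was 0.29, against 0.03 over all. With scaling to the hybridisation controls the medians of the members were 1.24 and -0.35, the latter below 0.

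Sham itself differed between the days. From 28 to 50 days, 5 of 13 member probe sets were higher past the fold in sham, against 1.67% of all tested: Ckm by 1.51, Acta1 by 1.49, Myh7 by 1.39, Tnnc2 by 1.32 and Pygm by 1.06. The median over the genes was 1.00, against 0.02 over all probe sets. Casq1 was the 1 gene lower at 50 days (-0.21), with overlapping arrays. The 2 comparisons share the sham pool of 28 days.

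L4 against sham gave 0 calls by limma in 13 member probe sets, where 0% of all tested were called and 0 members had an unadjusted p under 0.05. The median over the genes was 0.40. At 28 days, Acta1 and Ckm were past the fold and higher, 2 of 13 against 1.01% of all, and the median was 0.80. At 50 days the median was 0.04, and 1 probe set was past the fold and lower, against 0.846% of all, the L10669_at of Pygm with its disagreeing arrays.

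L5 against L4, in which both ganglia come from operated rats, gave 0 member calls by limma against 1.28% called of all, with 3 members at an unadjusted p under 0.05. All 13 lay above 0 and the median over the genes was 0.49, but with scaling to the hybridisation controls it was -0.09, where the median of all probe sets was -0.64. Tnnc2 differed by 0.95 ± 0.37 (adjusted p = 0.193) and Acta1 by 0.71 ± 0.50 (adjusted p = 0.449). Without the L5 pool of 50 days 5 members were called higher, Acta1 at 2.00 among them, where 1.94% of all tested were called higher, and without that of 28 days Acta1 was at -0.58.

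The day term of the fit called 0 member probe sets, against 0.286% of all, with 3 at an unadjusted p under 0.05. By pool, the changes from 28 to 50 days ran differently. In L5, Tnnc1 and Myh3 (X04267_at) were higher past the fold by 1.02 and 1.10, 2 of 13 against 5.31% of all, and Acta1 was lower, 1 of 13 against 4.81%. These shares are of the order found over all probe sets in that pair of pools. In L4, 1 of 13 was higher, Tpm2's AA012719_at, against 0.916% of all.

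**Figure D3:**
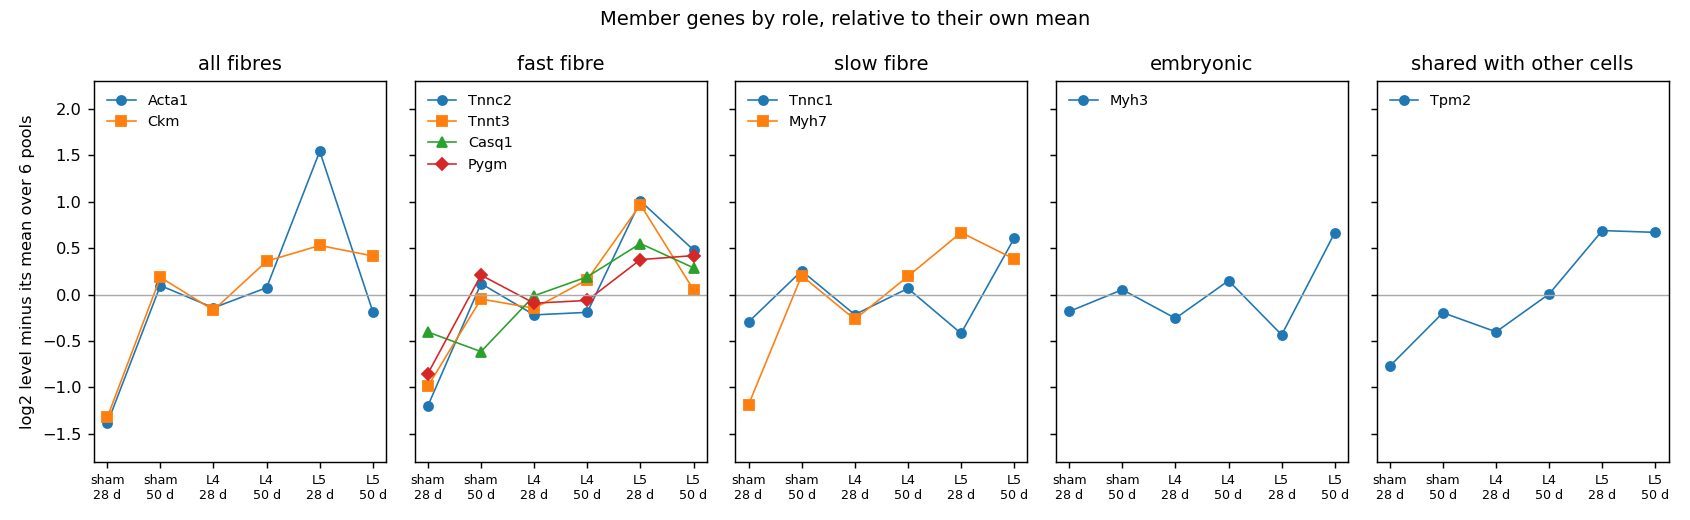
Log2 level of each member gene in each of the 6 pools, minus its own mean over the pools, with 1 panel per role (lines join the pools of 1 gene to guide the eye). The genes of all fibres and the fast-fibre genes, Casq1 apart, start from the sham pool of 28 days at -0.85 or lower. Myh3 (X04267_at) and Tnnc1 stay within -0.43 and 0.67 and are highest in the L5 pool of 50 days.

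Split by role, the L5 minus sham medians of the fit were 1.18 for the 2 genes of all fibres, 0.98 for the 4 fast-fibre genes, 0.56 for the 2 slow-fibre genes, 0.18 for Myh3 (X04267_at) and 1.16 for Tpm2. At 28 days they were 2.39, 1.59, 0.87, -0.25 and 1.46. The difference between roles was not tested, and the slow-fibre median averages Myh7, which went with the fast-fibre genes, and Tnnc1, which did not. Over the 6 pools, the median level of the members relative to each gene's mean was -0.92 and 0.11 in sham at 28 and 50 days, -0.19 and 0.11 in L4, and 0.61 and 0.42 in L5.

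The lowest pool was sham at 28 days for 7 genes, all but Casq1, Tnnc1 and Myh3. The highest was L5 at 28 days for 7, all but Pygm, Tnnc1 and Myh3. Across the 6 pools the correlation of a gene with the mean of the other 9 was 0.98 for Myh7, 0.96 for Tnnc2, 0.95 for Ckm, 0.95 for Pygm, 0.92 for Tpm2, 0.91 for Tnnt3, 0.80 for Acta1 and 0.65 for Casq1. It was 0.25 for Tnnc1 and 0.17 for Myh3. Myh3 stands here for X04267_at alone, and its other tested probe set, K03468_s_at, was highest in the L5 pool of 28 days. These are descriptions over 6 points, in which the genes of 1 chip type share arrays.

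Other skeletal muscle genes, 77 in a list, were present for 70 and tested for 39. None of the 39 was called by limma in L5 against sham, L4 against sham, L5 against L4 or for the day, where 15, 0, 13 and 5 had an unadjusted p under 0.05. The share of all tested probe sets with such a p is not given, so these counts and those of the members have no background. In L5 against sham 32 of 39 lay above 0 with a median of 0.44, which was 0.56 at 28 days and 0.25 at 50 days. At 28 days 9 of the 39 genes were past the fold and higher, against 2.67% of all tested probe sets: Ttn, Car3, Atp2a1, Csrp3, Tnni2, Actn3, Pgam2, Chrnd and Ankrd1. The fast-fibre genes of this list had a median of 1.20 at 28 days (8 genes), from -0.21 for Pvalb to 2.34 for Atp2a1. The slow-fibre genes had 0.43 (6 genes), from -0.48 for Atp2a2 to 0.82 for Tpm3. Car3 was listed with the genes of all fibres, and the difference between fast and slow was not tested. The lists were set by role in muscle. Whether cells of the ganglion also make genes such as Atp2a2, Tpm3 and Pvalb was not tested.

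The 6 of these genes with the widest range over the pools did not share 1 course. Ttn, the giant titin spring of the sarcomere, had signals (rc_AI010605_at) of 34.6 and 9.1 in sham at 28 days, 39 and 53 in sham at 50 days, 66.8 and 77.7 in L4 at 28 days, 41.7 and 33.1 in L4 at 50 days, 259 and 244 in L5 at 28 days and 47.8 and 48.5 in L5 at 50 days. Car3, carbonic anhydrase of slow muscle and of fat, gave 259 and 312 in sham at 28 days, 329.7 and 259 in sham at 50 days, 334 and 366 in L4 at 28 days, 374 and 360.2 in L4 at 50 days, 1805 and 1784 in L5 at 28 days and 167 and 401.5 in L5 at 50 days. Both were highest in the L5 pool of 28 days, Ttn by 2.85 and Car3 by 2.57 over sham of that day, and at 50 days stood at 0.06 and -0.16. In L4 at 28 days Ttn was also past the fold, 1.26 above sham.

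Atp2a1, the calcium pump of fast fibres, gave 49.4 and 50 in sham at 28 days, 172 and 166 in sham at 50 days, 122.5 and 147 in L4 at 28 days, 137 and 133.5 in L4 at 50 days, 314 and 296 in L5 at 28 days and 75.7 and 77.2 in L5 at 50 days. It had the course of Acta1, highest in the L5 pool of 28 days, and was below sham by 1.03 at 50 days and above it by 2.34 at 28 days. Tnni2, the fast troponin I, gave 29.2 and 16.8 in sham at 28 days, 63.1 and 94.8 in sham at 50 days, 61.5 and 50.5 in L4 at 28 days, 59.3 and 78.4 in L4 at 50 days, 119 and 139 in L5 at 28 days and 114 and 51.9 in L5 at 50 days. It was 2.00 above sham at 28 days and 0.00 above it at 50 days. Csrp3, a muscle LIM protein, differed by 2.04 and 0.25, and Pgam2, the muscle phosphoglycerate mutase, by 1.44 and 1.18. Pgam2 was thus above sham at both days, but its sham arrays of 50 days disagreed (11.7 and 47.9), against 53.1 and 103.2 in L5. Its sham arrays of 28 days, 53.5 and 34.2, overlapped those of 50 days. The sham change of -0.53 from 28 to 50 days and the 1.18 at 50 days thus rest on arrays that disagree. In the fit these 6 genes had L5 minus sham of 0.66 to 1.45 with adjusted p from 0.110 to 0.563.

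**Figure D4:**
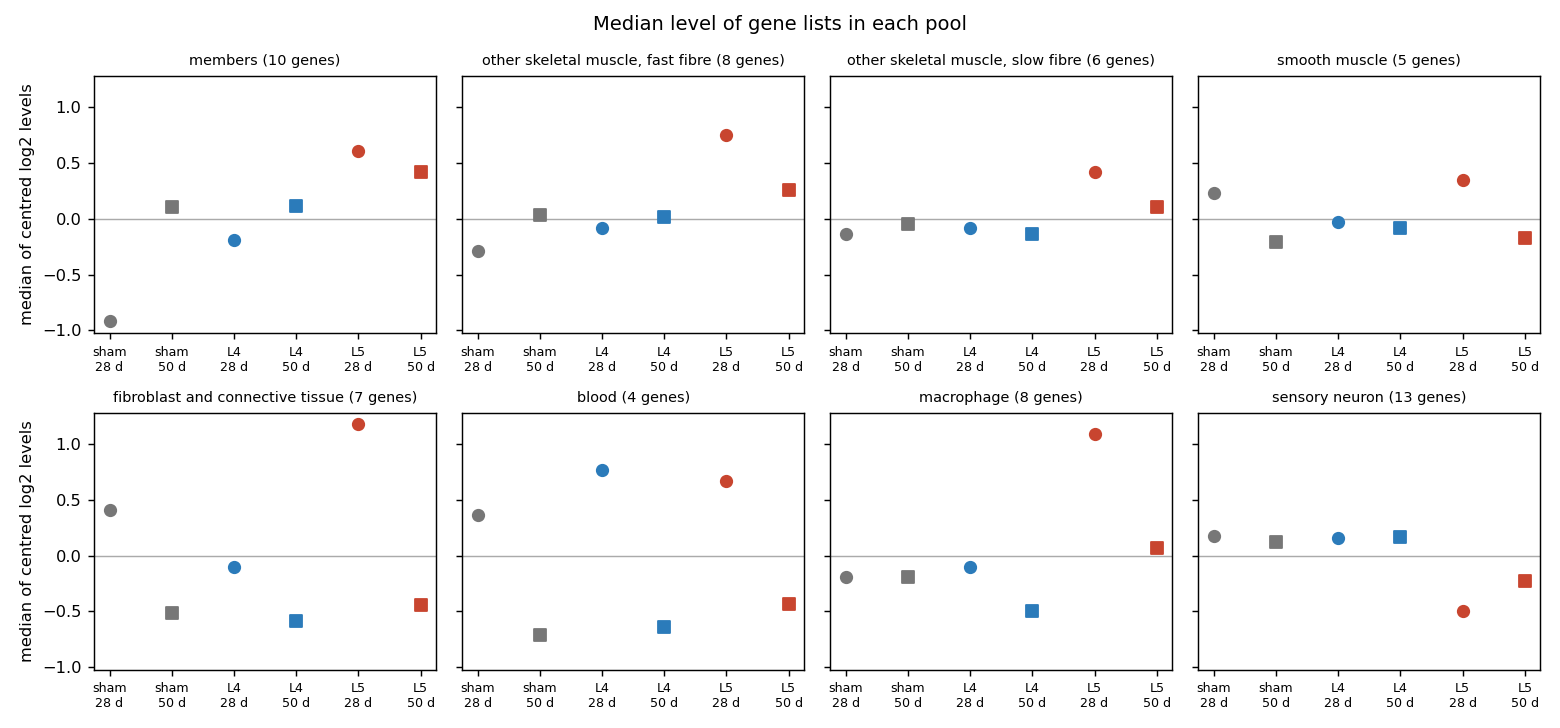
Median over the tested genes of a list of log2 level minus each gene's mean over the 6 pools, for the members and 7 lists of other genes (grey sham, blue L4, red L5; circles 28 days, squares 50 days). Members and connective tissue genes are both high in the L5 pool of 28 days, at 0.61 and 1.18, but in the sham pool of 28 days members lie at -0.92 and connective tissue genes at 0.41.

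Markers of other tissues around or in a ganglion moved along in part. All 7 connective tissue genes (Col1a1, Col1a2, Col3a1, Dcn, Lum, Fn1 and Pdgfra) were above sham in L5 at 28 days, with a median of 0.74. In sham they were lower at 50 than at 28 days (median -0.92), opposite to the members (1.00). Their summed signals were 21514.5 and 11235 in sham at 28 and 50 days, 15209 and 11922.5 in L4, and 33640.2 and 12573 in L5, with no gene below 149.3 on any array.

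The 8 tested macrophage genes of 10, such as Cd68 and Csf1r, were above sham in L5 at 28 days by a median of 1.15 and at 50 days by 0.07. Their summed signals were 1488 and 1927 in sham, 1864 and 1581 in L4, and 3678 and 2115 in L5. In L5 against sham at 28 days, Aif1, C1qa, Cd74, Csf1r, Ctss and Fcer1g were past the fold and higher. Cd4 and Cd68 were not, and the share over all tested probe sets was 2.67%. The 4 tested blood genes summed to 3174 in sham at 28 days and 1156 at 50 days. This blood sum was high at 28 days in all 3 kinds of ganglia, with 3856 in L4 and 4352 in L5, and at 1036 and 1049 in those of 50 days. By gene, the day term of the fit (50 minus 28 days) was -2.05 for Hbb and -2.03 for S100a9. It was -0.45 for Alas2 and 0.10 for S100a8, so the genes did not all share the course of the sum. The part of macrophages and blood cells in the members' values was not tested.

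Smooth muscle genes (5 tested of 9, among them Acta2 and Tagln) differed in L5 against sham by a median of 0.12, and by 0.19 at 28 days. Their summed signals were 966.6 and 615.6 in sham, 740.9 and 731 in L4, and 962.6 and 632.5 in L5. Cardiac genes (4 of 8) had a median of -0.10, and -0.50 at 28 days. Fat genes (4 of 10) had 0.32, and -0.03 at 28 days. Schwann cell and satellite glia genes (7 of 10) had 0.05, and 0.11 at 28 days. The median of the members at 28 days, 1.66, lay above those of all 4 lists, but at 50 days, where it was 0.29, cardiac genes stood at 0.30 and fat genes at 0.46. Within L5, the 4 cardiac genes were higher at 50 than at 28 days by a median of 1.21, with 3 of 4 past the fold against 5.31% of all. Tnnc1 and Myh3 (X04267_at) were also higher in that pair of pools. The part of heart-type genes in those values was not tested.

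Sensory neuron genes ran the other way, with a median of -0.37 in L5 against sham and 3 of 13 called lower (Avil, Scn10a and Scn11a), against 0.547% called lower of all. Their summed signals were 37633.2 and 41219.8 in sham, 36058 and 37030.6 in L4, and 29421 and 37249.5 in L5, lowest where most members were highest. Every array was scaled to 1 mean, so a value is a share of its array's signal.

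The mean course of the members over the 6 pools served as a profile, and 3336 tested probe sets of single other genes with a range of at least 1 were compared with it. The 10 most alike were Adh1c (r = 0.995), C1qc, Ccne1, Tnni2, Smad3, Actn3, Shank2, Trim54, Prc1 and Cnot10 (r = 0.957). Some of them rest on arrays that disagree: in sham at 28 days Ccne1 gave 41.6 and 5.7, and Cnot10 185 and 31. Of the 10, Tnni2 and Actn3 belong to the skeletal muscle list, which had 29 probe sets among the 3336. That list does not hold every muscle gene, and Trim54 and the rest of the 10 were on none of the lists used here. The 29 probe sets of the list ran from rank 4 (Tnni2) to rank 2425 (Fabp3). Myh4 (L24897_s_at), Csrp3, Cox6a2 and Chrnd stood at ranks 11, 18, 22 and 31, Ttn and Car3 at 289 and 603.

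Adh1c, an alcohol dehydrogenase, gave 12.6 and 20.1 in sham at 28 days, 40.3 and 103 in sham at 50 days, 49.7 and 58.9 in L4 at 28 days, 54 and 85.5 in L4 at 50 days, 114.5 and 115 in L5 at 28 days and 124 and 82.7 in L5 at 50 days. It was dimmest in the sham pool of 28 days, like 7 of the 10 member genes, and even in its 2 L5 pools. C1qc, a complement subunit made by macrophages, gave 11.5 and 14.1 in sham at 28 days, 87.4 and 53 in sham at 50 days, 75.3 and 72 in L4 at 28 days, 59.5 and 74.6 in L4 at 50 days, 174.5 and 147 in L5 at 28 days and 98.7 and 117 in L5 at 50 days. Its L5 minus sham was 2.45 at 28 days and 0.52 at 50 days. Both correlations are over 6 pools, were picked as the highest of many, and say nothing of shared control.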

How the data were processed

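The authors deposited 1 intensity signal per probe set and array. The submitters' processing notes name MAS5; its version and detection calls are not given in the sources used here, so a dim probe set is not called absent. Arrays of a chip type were scaled to 1 trimmed mean (2% off each end) and transformed to log2(signal + 12.8, 17.7 or 20.2 on chips A, B and C). Probe sets under the 40th percentile of mean level (signals of about 35.1, 50.2 and 54.8) and controls were left out. Arrays of a pool were averaged, and limma 3.58.1 in R 4.3.3 (lmFit, eBayes with an intensity trend, 2 residual degrees of freedom) was fitted to the 6 pools. The p-values rest on pools. Their error is what ganglion and day leave unexplained in the pool values, which eBayes moderates with the spread of other probe sets of like level. No 2 pools share both ganglion and day, so a spread between like pools was not measured. The brightest tested probe set stands for a gene. Likeness was Pearson's r over 6 pools. Names were those of the platform annotation, and all 10 symbols matched RefSeq. The code was tested on simulated data. Members, roles and lists were chosen with earlier results of these data known.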

Additional observations from a re-analysis of the deposited data

Results flagged for a closer look

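In 4 tested probe sets both arrays of an operated pool lay beyond both sham arrays in one direction at 28 days and in the other at 50 days; the difference between the days was not tested, since each day has 1 pool a side. Acta1 (J00692_at) in L5 against sham was at 2.93 on the log2 scale at 28 days and -0.28 at 50 days. In L4 against sham, Tnnc2 (rc_AI639532_at) was at 0.98 and -0.31, with a sham pool of 28 days that was the lowest of all 6 pools. Pygm (L10669_at) was at 0.92 and -1.17, the latter resting on L4 arrays of 50.3 and 2.2. Tpm2 (AA012719_at) went the opposite way, at -0.70 and 0.72, with sham arrays of 16.7 and 62.8 at 50 days. The share of all tested probe sets that reversed in this way is not given here, so these 4 are not shown to be unusual.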

How the results depend on the processing

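The number of member probe sets called in L5 against sham (1) became 0 with quantile normalization, scaling to hybridisation controls, no filter, no intensity trend, array 1 or array 2 alone, or without the sham array with both days in its labels. In that order, the share called higher of all tested was 0.108%, 0.21%, 0.0382%, 0.0127%, 0%, 0.00636% and 0.204%, against 0.235% in the main fit. With the array number as replicate block and the pool as a random block it was 2 (Tpm2 and Tnnc2) and in L5 against L4 1. There 1.76% and 2.18% of all were called higher, and 6.18% and 7.5% in either direction. Array numbers paired nothing, as deviations of same-numbered arrays correlated at -0.10 to 0.11 between pools. The shares in the next sentence are also of calls in either direction. Leaving out each pool in turn gave 0 to 6 calls in L5 against sham, 0 to 1 in L4 against sham, 0 to 5 in L5 against L4 and 0 to 2 for the day, while the share called of all tested ran from 0.204% to 3.92%, 0.0127% to 0.0636%, 0.712% to 4.97% and 0.439% to 2.88%; a ganglion left with 1 pool was assumed to vary like the others. The median of the member genes then ran from 0.40 to 1.51 in L5 against sham, from -0.051 to 0.93 in L4 against sham and from 0.21 to 1.04 in L5 against L4. Scaling to hybridisation controls gave medians of 0.56 in L5 against sham, -0.095 in L5 against L4, 1.24 and -0.35 in L5 against sham at 28 and 50 days, and 1.16 in L4 against sham at 28 days. The pseudocount at the 40th percentile gave 1.26 in L5 against sham at 28 days. Myh3 in L5 against sham was at -0.013 with median centring, -0.32 with hybridisation controls, -0.020 with array 2 alone and -0.21 to 0.57 without a pool. Tnnc1 was at -0.38 with hybridisation controls, -0.0074 with array 1 alone and -0.19 to 0.42 without a pool. Acta1 in L5 against L4 ran from -0.58 to 2.00 without a pool. The cause of these shifts was not tested.

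The member median in L5 against sham stayed above 0 in every setting run. With 6 pools and 2 residual degrees of freedom, dim members such as Myh7, with arrays of 5 and 52.4 in the sham pool of 28 days, are measured poorly.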
